A study of Mus musculus with 2 samples.

Results

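The collagen genes were every gene whose symbol in the deposited gene list has the form Col, a number, the letter a and a number. In all, 44 of the 32285 listed genes met that rule. Of these, 11 encode fibrillar collagens, 8 encode collagens of basement membranes and 25 encode other kinds. The other kinds were 9 FACITs (collagens that sit on the surface of fibrils), 6 beaded filament chains of collagen VI, 4 transmembrane collagens, 3 short chain collagens, the anchoring fibril collagen Col7a1, and Col26a1 and Col28a1. The rule itself used no measured value, although it was set with earlier results of these data known.

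Collagen chains fold together as helical trimers, and the genes of a trimer's chains are usually read in the same cell. Fibrillar collagens I, III and V form the tensile fibres of connective tissue, collagen IV forms the mesh of basement membranes beneath epithelium and around vessels, and collagen VI links cells to the surrounding matrix. In the colon, fibroblasts of the mucosa and submucosa lay down most fibres, while endothelium and pericytes build the vessel wall's basement membrane.

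The study sequenced single cells of colorectal tumours induced in mice with azoxymethane and dextran sodium sulphate (AOM/DSS), a carcinogen followed by a colitis-causing agent. The group labelled WT held wild-type mice, and the group labelled STK25 wKO held mice with a global knockout of the kinase gene Stk25 (STK25-/-), and both groups carried AOM/DSS tumours. The tumours of a group were combined, taken apart with trypsin and made into 1 library per group, so there was no replicate and no test could be run. The series description also names a cell sort on an mCherry signal, without saying which cells it kept or which group carried the reporter, and the number and age of the mice were not given in the sources used here. Paired values below give the library labelled WT and then the library labelled STK25-/-, and a log2 ratio is STK25-/- over WT. Every 95% interval covers counting error only: it says nothing of the spread between mice.

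The libraries held 12542 and 14168 cell barcodes with 38737373 and 66297749 unique molecular identifiers (UMIs, each standing for 1 captured transcript), and 230 barcodes occurred in both. After filters, 12270 and 13883 cells were kept. Stk25 itself was at 52.2 and 87.4 UMIs per 1000000 UMIs (CPM) in fibroblasts, a log2 ratio of 0.74 (0.40 to 1.10), at 53.8 and 75 CPM in endothelium, a ratio of 0.48 (0.07 to 0.91), and at 167 and 156 CPM in epithelium, a ratio of -0.10 (-0.15 to -0.04). It was at 118 and 127 CPM over all kept cells, a ratio of 0.11 (0.05 to 0.16). A level well below WT was thus not seen in the library labelled STK25-/-, and which part of the gene was deleted was not given in the sources used here. The labels therefore rest on the submitters' word, and every direction below is between libraries labelled in this way. Cell classes were named from marker genes other than collagens and mean cells like that type: fibroblasts (673 and 793 cells), pericytes or smooth muscle (92 and 158), endothelium (464 and 817), glia (27 and 28) and epithelium (2705 and 4924). The 7 fibroblast markers (such as Dcn and Pdgfra) summed to 10138 and 9902 CPM in fibroblasts and to 42.5 and 43.8 CPM in epithelium, and the 7 endothelial markers summed to 3937 and 4175 CPM in endothelium and to 42.1 and 49.8 CPM in fibroblasts. Since 3′ chemistry is meant to count transcript ends and not bases, CPM values were compared between genes without a length correction. An effect of gene length on the counts was not tested.

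Collagen mRNA lay mainly in the stroma, and the kinds of collagen were divided between its cells. Fibroblasts held 89.7% (89.3 to 90.2, Clopper-Pearson) and 86.9% (86.4 to 87.3) of all fibrillar collagen UMIs. Basement membrane collagen was split: fibroblasts held 38.3% and 23.1% of its UMIs, endothelium 39.2% and 53.1%, and pericytes or smooth muscle 10.1% and 11.7%. Over all 44 genes, fibroblasts held 74.2% and 60.9% and endothelium 10.0% and 18.6%. The shares depend on how many cells of each class a library holds, so levels per UMI are given for the rest.

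Every one of the 44 genes had at least 1 UMI, 24 had at least 200 UMIs over both libraries, and 20 had fewer. Among the 24, the level was highest in fibroblasts for 11, in glia for 6, in endothelium for 4, in pericytes or smooth muscle for 2 and in epithelium for 1. None of the 24 was highest in an immune class.

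**Figure D1:**
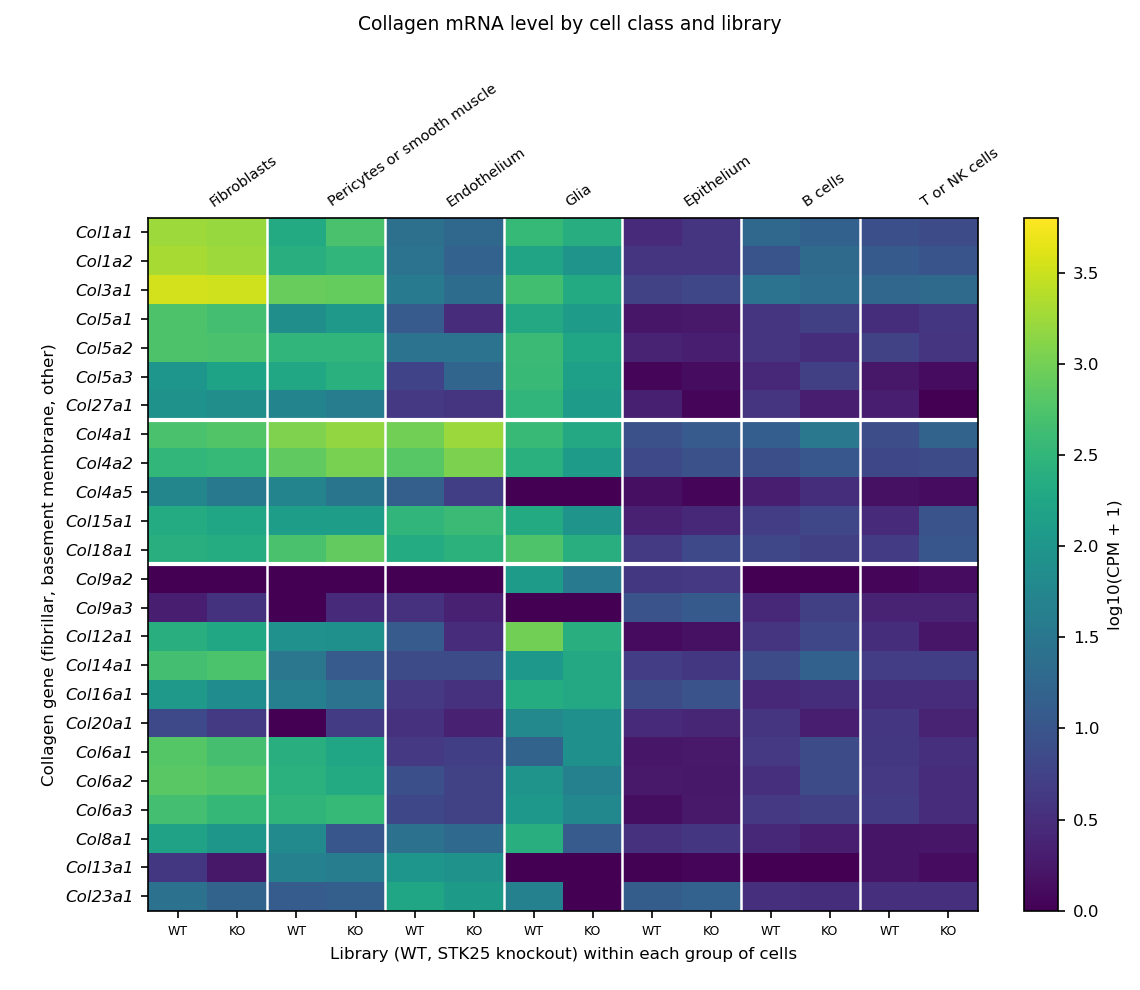
Level of each collagen gene with at least 200 UMIs (rows) as log10 of CPM + 1 (colour) in 7 cell classes, with the WT and STK25 knockout (KO) library side by side. Col1a1, Col1a2 and Col3a1 were highest in fibroblasts in both libraries, Col4a1 and Col4a2 stood high in pericytes or smooth muscle and endothelium, and Col23a1 was the highest row in epithelium.

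Fibrillar collagens were the most abundant kind, at 8589 CPM (8457 to 8723) and 7944 CPM (7836 to 8052) in fibroblasts. Col3a1, the chain of collagen III, led all collagen genes with 3511 and 3318 CPM in fibroblasts, from 15327 UMIs over the fibroblasts of both libraries. The chains of collagen I followed, with Col1a2 at 2017 and 1752 CPM and Col1a1 at 1747 and 1659 CPM. A UMI of Col1a1 was found in 65.4% and 71.0% of fibroblasts, against 1.2% and 1.24% of T or NK cells, a class that should lack it and gauges RNA from outside the cells. The median depth was 2141 and 2553 UMIs per fibroblast and 1387 and 1740 per T or NK cell. After each cell was cut down at random to 1000 UMIs and shallower cells were left out, 55.3% and 59.6% of fibroblasts still had one.

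The regulatory chains of collagen V, which set the width of collagen I fibrils, were lower. In fibroblasts, Col5a2 was at 545 and 511 CPM and Col5a1 at 555 and 454 CPM. Col5a3 was at 99.6 and 157 CPM, and Col27a1, a fibrillar collagen known from cartilage, at 89.5 and 73.3 CPM. Col5a3 was instead high in glia (363 and 138 CPM) and pericytes or smooth muscle (182 and 257 CPM), where it stood above Col5a1 (77.3 and 112 CPM) in both libraries. Col5a2 was at 317 and 318 CPM in pericytes or smooth muscle and at 26.9 and 27.3 CPM in endothelium. Of the fibrillar genes with under 200 UMIs, Col24a1 lay mainly in fibroblasts (46 and 48 UMIs) and Col11a1 in glia (33 and 5 UMIs), while Col2a1, the cartilage collagen (46 UMIs in all), and Col11a2 (133) were not concentrated in fibroblasts, which held 2.17% and 3.76% of their UMIs.

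The start of Col3a1 lies on chromosome 1 at chr1:45311538-45349706 (mm10, plus strand), with Col5a2 next to it on the opposite strand at chr1:45374321-45503282. Its upstream sequence is shown because Col3a1 carried the most collagen UMIs. The 250 bases before the start, chr1:45311288-45311537 (RefSeq, GRCm38.p6, the same assembly as mm10, plus strand), hold 1 TATAAA motif, in capitals:
Col3a1: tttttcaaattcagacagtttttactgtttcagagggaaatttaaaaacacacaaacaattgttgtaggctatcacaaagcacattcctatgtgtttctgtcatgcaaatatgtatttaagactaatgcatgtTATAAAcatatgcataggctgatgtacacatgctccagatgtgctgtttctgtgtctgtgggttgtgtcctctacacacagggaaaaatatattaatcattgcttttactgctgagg
The motifs TATAAA and CCAAT were searched on both strands. TATAAA was found in 12.4% of 32841 windows of that length in the RefSeq table, and CCAAT in 33.9%. Of the 44 collagen genes, 35 had an entry, of which 5 held TATAAA and 12 held CCAAT, that is 14.3% and 34.3%. The sequence of the Col3a1 window had a GC content of 35.2% and 0 CpG dinucleotides. A match of letters is a description and not a binding site.

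Between whole classes, basement membrane collagens were highest in endothelium and in pericytes or smooth muscle. Their summed level was 2177 CPM (2096 to 2262) and 3488 CPM (3414 to 3562) in endothelium and 2652 CPM (2458 to 2858) and 3597 CPM (3436 to 3763) in pericytes or smooth muscle, against 1390 and 1412 CPM in fibroblasts. Within fibroblasts, the pericryptal-like subcluster described below was at 2830 and 2775 CPM, above endothelium in the library labelled WT and below it in the other. In the pericyte or smooth muscle class, 1 cell held 28.6% of the WT basement membrane UMIs, and without the top cell of each library the levels were 1990 and 3235 CPM. A subcluster of 15 and 24 cells led by endothelial genes held 357 and 813 basement membrane UMIs, where the whole class held 686 and 1886. The class's levels of single genes include those cells, and their part was not tested. The subcluster led by Acta2, Tagln and Notch3 alone was at 2283 and 3551 CPM.

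Col4a1 and Col4a2, whose chains form the ubiquitous collagen IV trimer, led this kind. In endothelium Col4a1 was at 974 CPM (919 to 1031) and 1691 CPM (1640 to 1744), and Col4a2 at 646 CPM (602 to 692) and 1124 CPM (1082 to 1166). In pericytes or smooth muscle Col4a1 was at 1144 and 1539 CPM and Col4a2 at 738 and 1096 CPM. Fibroblasts held both at lower levels, with Col4a1 at 517 and 596 CPM and Col4a2 at 326 and 355 CPM. A UMI of Col4a1 was in 44.0% and 62.8% of endothelial cells (34.0% and 51.7% after thinning), against 1.12% and 2.77% of T or NK cells. Col4a1 in B cells was at 12.7 and 32.4 CPM and in T or NK cells at 7.04 and 15.2 CPM, so the gauge of outside RNA was itself higher in the library labelled STK25-/-, at a level far below that of endothelium.

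Col15a1 and Col18a1 encode the multiplexins, proteoglycan collagens of basement membranes, and Col18a1 is the source of endostatin. Col15a1 was highest in endothelium at 316 and 392 CPM, followed by fibroblasts at 215 and 172 CPM and pericytes or smooth muscle at 128 CPM in both libraries. Col18a1 was at 510 and 767 CPM in pericytes or smooth muscle, its highest class over both libraries together, although glia stood above it in the library labelled WT (559 and 242 CPM). In pericytes or smooth muscle, 43.2% of its WT UMIs lay in 1 cell, and without the top cell of each library it was at 304 and 659 CPM. In endothelium Col18a1 was at 218 and 272 CPM, and in fibroblasts at 242 and 224 CPM. Col4a5, a chain of the collagen IV of some epithelial basement membranes, was low throughout and highest in fibroblasts, at 54.9 and 33.4 CPM, while Col4a3, Col4a4 and Col4a6 had 64 to 138 UMIs each in all.

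All 6 collagen IV genes stand in head-to-head pairs on opposite strands: Col4a1 with Col4a2 on chromosome 8, Col4a4 with Col4a3 on chromosome 1 and Col4a6 with Col4a5 on chromosome X. In the annotation used, Col4a1 starts at 11312826 and Col4a2 at 11312805, so that the genes overlap at their starts. The starts of Col4a4 and Col4a3 are 72 bases apart, and those of Col4a6 and Col4a5 are 1309 bases apart.

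The collagen VI chains were the main genes among the other kinds. In fibroblasts Col6a2 was at 679 and 591 CPM, Col6a1 at 630 and 475 CPM and Col6a3 at 456 and 339 CPM, and in pericytes or smooth muscle the same chains were at 271 and 206, 240 and 170, and 305 and 349 CPM. The chains Col6a4, Col6a5 and Col6a6, which lie side by side on chromosome 9, were rare, with 61, 95 and 7 UMIs. The genes Col6a2 and Col6a1 are neighbours on chromosome 10. In endothelium and epithelium the 6 chains together were at 16.3 and 14.3 CPM and at 1.98 and 2.59 CPM, and in T or NK cells at 10.3 and 6.42 CPM.

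Of the FACITs, Col14a1 was highest in fibroblasts at 465 and 523 CPM. Col12a1, which binds collagen I fibrils in tissue under tension, was at 241 and 189 CPM in fibroblasts and at 81.2 and 80.1 CPM in pericytes or smooth muscle. Col16a1 was at 110 and 69.9 CPM in fibroblasts. Col8a1, a short chain collagen of vessels and healing tissue, was at 151 and 102 CPM in fibroblasts and at 26.1 and 19.2 CPM in endothelium, where 63.8% of the STK25-/- UMIs lay in 1 cell. Of the transmembrane collagens, Col13a1 was at 97.0 and 87.2 CPM in endothelium and at 46.4 and 40.0 CPM in pericytes or smooth muscle, and Col23a1 was at 170 and 115 CPM in endothelium and at 25.6 and 15.2 CPM in fibroblasts. Col10a1, the hypertrophic cartilage collagen, had 6 UMIs over both libraries, Col26a1 had 11, Col22a1 20, Col8a2 24, Col19a1 39, Col9a1 40, Col25a1 96 and Col7a1 108.

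Glia, the support cells of enteric nerves, were the highest class for 6 of the 24 genes with at least 200 UMIs, although only 27 and 28 cells were found. The collagen genes summed to 6405 CPM (5810 to 7045) and 2915 CPM (2567 to 3298) in glia. Col12a1 was at 982 and 242 CPM, Col18a1 at 559 and 242 CPM, Col27a1 at 317 and 127 CPM, and Col16a1 at 227 and 196 CPM. These genes were not confined to glia: fibroblasts held Col12a1 at 241 and 189 CPM and Col18a1 at 242 and 224 CPM. Col28a1, known from peripheral nerve, had 16 and 11 UMIs in glia, or 242 and 127 CPM, against 6 and 16 UMIs in the far more numerous fibroblasts. Col9a2, a cartilage FACIT, was at 121 and 34.6 CPM in glia from 8 and 3 UMIs, and the FACIT Col20a1 at 60.4 and 80.7 CPM from 4 and 7. The 6 epithelial markers summed to 1148 and 6833 CPM in glia and the 6 glial markers to 1344 and 1129 CPM, none of them at 0 in either library, and the part of the epithelial RNA in the collagen levels of glia was not tested.

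Epithelium showed little collagen mRNA of its own. Fibrillar collagen was at 14.4 and 14.9 CPM in epithelium, below B cells (67.4 and 69.0 CPM) and T or NK cells (48.8 and 44.2 CPM). Col1a1 in epithelium was at 1.90 and 2.73 CPM, which was 0.19 and 0.33 times its level in B and T or NK cells. The share of epithelial cells with a UMI of Col1a1 was 1.44% and 1.85%, close to that of T or NK cells although epithelial cells were deeper (a median of 3944 and 4365 UMIs), and is read as background. A few genes stood above that background. Among them were Col23a1 at 12.0 and 14.8 CPM (5.19 and 6.40 times B and T or NK cells) and Col9a3 at 8.42 and 10.9 CPM (5.75 and 5.31 times). Col16a1 was at 6.39 and 8.25 CPM (3.08 and 4.01 times) and Col8a1 at 2.47 and 3.06 CPM (2.89 and 3.96 times). Col9a2 was at 3.08 and 3.30 CPM (25.3 and 12.8 times). It had 1 UMI in the T or NK cells of each library, so its multiples cannot be ranked against the others. In the library labelled WT, 21.2% of the epithelial Col23a1 UMIs lay in 1 cell. Col17a1, the hemidesmosome collagen of epithelium, was at 2.07 and 2.28 CPM (2.43 and 8.88 times), with 38.3% of the WT UMIs in 1 cell. In the library labelled STK25-/- it had 0 UMIs in T or NK cells, so the second multiple is uncertain as well. Col4a1, at 7.75 and 11.2 CPM in epithelium, was 0.94 and 0.58 times its level in B and T or NK cells. On the same scale Col4a2 was at 0.98 and 1.05 times, Col18a1 at 0.83 and 0.71 times and Col15a1 at 0.53 and 0.23 times. Except for Col15a1 in the library labelled STK25-/-, these stood above the 0.19 and 0.33 times of Col1a1. Whether epithelium made part of this mRNA was not tested.

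Subclusters of the stroma differed in which collagens they carried. They were found with the collagen genes left out of the clustering, named with the suffix "like" where their markers allowed it, and otherwise called by their leading genes. Adventitial-like fibroblasts (Pi16, Clec3b, 123 and 171 cells) were highest in Col3a1 at 5394 and 4957 CPM and carried Col14a1 at 1117 and 1046 CPM and Col8a1 at 352 and 186 CPM. Mucosal-like fibroblasts led by Wnt4, Tcf21 and Adamdec1 (114 and 149 cells) had less Col14a1, at 260 and 304 CPM, and Col8a1 at 57.3 and 44.2 CPM. They had more Col18a1 than the adventitial-like cells, at 491 and 474 against 56.3 and 47.7 CPM, and more Col15a1, at 397 and 346 against 106 and 97.0 CPM. These 4 contrasts had the same direction in both libraries.

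Pericryptal-like fibroblasts (Sox6, Bmp5, 26 and 27 cells), a kind that lies next to the crypt epithelium, held basement membrane collagen at 2830 and 2775 CPM, above the Wnt4-led mucosal-like cells at 2189 and 2224 CPM. Col4a5 was at 444 and 359 CPM there and Col4a6 at 211 and 295 CPM, against 54.9 and 33.4 CPM and 21.8 and 17.1 CPM in all fibroblasts. The fibrillar gene Col24a1 was at 116 CPM in both libraries, from 11 UMIs each. Col15a1 had 0 UMIs in these cells in both libraries, in contrast to the mucosal-like cells. Col18a1 was at 961 and 433 CPM, and the highest cell of each library held 24.2% and 29.3% of its UMIs.

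The genes Col4a6 and Col4a5 share an intergenic stretch on chromosome X and both stood high in pericryptal-like cells, so their upstream sequences are shown (RefSeq, GRCm38.p6). The Col4a6 window is chrX:141474077-141474326, read on the minus strand, and holds neither motif. The Col4a5 window, chrX:141475169-141475384 on the plus strand, is 216 bases long and holds 1 CCAAT, in capitals, a motif found in 30.5% of windows of that length:
Col4a6: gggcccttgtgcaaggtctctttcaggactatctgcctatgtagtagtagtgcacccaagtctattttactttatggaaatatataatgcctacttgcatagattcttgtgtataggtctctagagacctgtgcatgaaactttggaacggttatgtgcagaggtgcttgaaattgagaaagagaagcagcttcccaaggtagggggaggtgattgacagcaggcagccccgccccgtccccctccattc
Col4a5: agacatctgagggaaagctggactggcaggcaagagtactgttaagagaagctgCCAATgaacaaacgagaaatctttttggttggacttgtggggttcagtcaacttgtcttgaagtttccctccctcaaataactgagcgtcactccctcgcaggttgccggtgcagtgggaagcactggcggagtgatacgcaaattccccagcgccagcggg

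The small group of activated-like fibroblasts (Mmp13, Il11, 15 and 28 cells) differed between the libraries in several chains, described here after their values were seen. Col12a1 was at 308 and 1391 CPM, Col5a3 at 290 and 1131 CPM and Col1a1 at 2086 and 3161 CPM. In the library labelled WT, Col12a1 was thus below its level in Wnt4-led mucosal-like cells (524 CPM) and Col1a1 below that in adventitial-like cells (2669 CPM). Col7a1, the anchoring fibril collagen, had 3 and 30 UMIs here, or 54.4 and 223 CPM, and 37 UMIs in all fibroblasts of the library labelled STK25-/-. These sums rest on few cells: 1 cell held 47.6% of all WT collagen UMIs of the group and 1 cell 22.7% of those of the other library. Without the top cell for each gene, Col12a1 was at 206 and 799 CPM, Col5a3 at 195 and 808 CPM and Col1a1 at 1046 and 2479 CPM.

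Cells of the vessel wall and muscle stood apart from fibroblasts. The subcluster led by Acta2, Tagln and Notch3 (49 and 83 cells) had fibrillar collagen at 1831 and 2822 CPM and basement membrane collagen at 2283 and 3551 CPM. Hhip-led myofibroblast-like or smooth muscle-like cells (19 and 23 cells) had fibrillar collagen at 3064 and 1783 CPM. A subcluster of 397 shallow cells, led by goblet cell genes such as Tff3 and with a median depth of 976 UMIs, had 2379 and 2763 CPM of fibrillar collagen and was left unnamed.

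**Figure D2:**
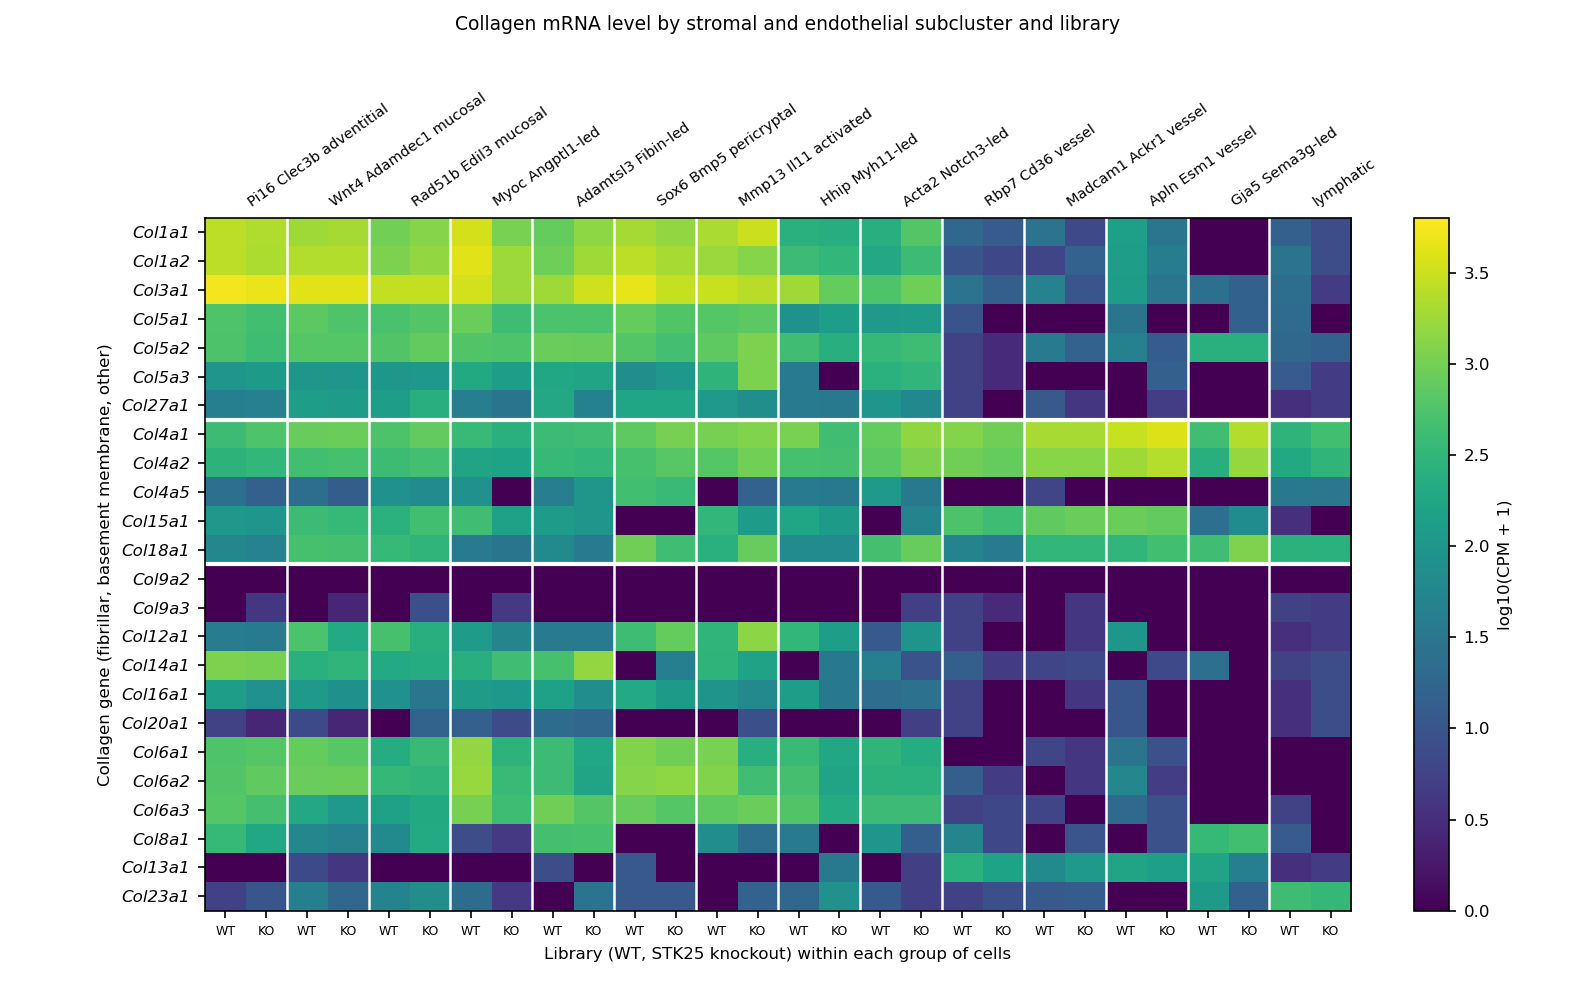
Level of each collagen gene with at least 200 UMIs (rows) as log10 of CPM + 1 (colour) in 9 stromal and 5 endothelial subclusters, with the WT and STK25 knockout (KO) library side by side. Col14a1 and Col8a1 marked the adventitial-like against the mucosal-like columns, Col4a5 was high in the pericryptal-like column, and Col23a1 was highest in the lymphatic-like column.

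The 4 named endothelial subclusters compared here stood in the same order of basement membrane collagen in both libraries. Vessel-like cells with Apln and Esm1, genes known from sprouting tip cells, among their leading genes (11 and 54 cells) were highest at 6056 CPM (5600 to 6539) and 7523 CPM (7286 to 7766). The venule-type cells led by Madcam1 and Ackr1 (60 and 103 cells) were at 4397 and 4572 CPM, although 1 cell held 25.1% of the WT UMIs and the levels without top cells were 3510 and 4411 CPM. Those led by Rbp7 and Cd36 (73 and 208 cells) were at 2816 CPM (2602 to 3044) and 2198 CPM (2075 to 2328). The largest lymphatic-like subcluster (142 and 121 cells) was lowest of the 4, at 818 and 1057 CPM. With the smaller lymphatic-like subclusters counted, the levels were 826 and 1751 CPM.

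The lymphatic-like cells and the Rbp7 Cd36 vessel-like cells differed in 3 further genes. Col23a1 was at 412 and 344 CPM in the lymphatic-like cells, while Col15a1 had 1 and 0 UMIs there against 550 and 413 CPM in Rbp7 Cd36 vessel-like cells. Col23a1 had 1 and 4 UMIs in the latter. Col13a1 was at 266 and 161 CPM in the Rbp7 Cd36 cells and had 1 UMI in the lymphatic-like cells of each library. In the library labelled WT, Col13a1 was not as high in every vessel-like subcluster: in the Madcam1 Ackr1 cells all genes of the other kinds together were at 95.8 CPM. That sum was 158 CPM in the library labelled STK25-/-, close to the 161 CPM above, so it cannot say whether Col13a1 was lower there. In the subcluster led by Gja5 and Sema3g (13 and 18 cells), genes known from arteries, basement membrane collagen was at 1111 and 5103 CPM, but 1 cell held 79.6% of the STK25-/- UMIs, and without the top cell of each library the levels were 932 and 1435 CPM.

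Between the libraries, fibroblast collagen differed little in sum and mostly downwards by gene, although the subclusters described below did not share a direction. Of the 44 genes, 23 had at least 50 UMIs in fibroblasts, and 1 of them was past a log2 ratio of 1 in size, where 3.85% of all 9615 genes with as many UMIs were. The log2 ratio was below 0 for 19 of the 23, against 47.6% of all genes, and the median was -0.29 against 0.02 over all genes. The genes of 1 trimer are not separate measurements, and with 1 library per group these counts describe the pair of libraries and not the genotype.

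The summed log2 ratio in fibroblasts was -0.11 (-0.14 to -0.08) for fibrillar collagens, 0.02 (-0.05 to 0.09) for basement membrane collagens and -0.27 (-0.32 to -0.21) for the other kinds. Col3a1 (-0.08), Col1a1 (-0.07), Col5a2 (-0.09) and Col1a2 (-0.20) stood near 0, and Col5a1 and Col27a1 were both at -0.29. The collagen VI chains were at -0.41 for Col6a1, -0.20 for Col6a2 and -0.43 for Col6a3, and Col12a1 was at -0.35. With cells thinned to 1000 UMIs, Col12a1 turned to 0.11, Col6a2 to 0.065 and Col1a1 to 0.029, and the sum of the other kinds was -0.087. As a mean over cells that sum was -0.061, so the size of the lower levels, and for these 3 genes the direction, depended on depth or weighting. Lower still were Col8a1 at -0.57, Col16a1 at -0.65, Col4a5 at -0.72 and Col23a1 at -0.75. The 4 genes above 0 were Col5a3 at 0.65 (0.40 to 0.91), Col4a1 at 0.20, Col14a1 at 0.17 and Col4a2 at 0.13.

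The gene past a log2 ratio of 1 was Col6a5, with 53 and 27 UMIs, or 28.2 and 10.2 CPM, and a log2 ratio of -1.46 (-2.19 to -0.77). In the library labelled WT, 26.4% of its UMIs lay in 1 cell, and without the top cell of each library the ratio was -1.18. Epithelial markers in fibroblasts were at 1129 and 1952 CPM, and neutrophil markers at 74.0 and 868 CPM, so RNA or cells of other classes differed between the fibroblast sums, and their part in the ratios was not tested.

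In pericytes or smooth muscle, 14 collagen genes had at least 50 UMIs, and 1 was past a log2 ratio of 1, where 9.39% of all 3173 genes were. The ratio was above 0 for 10 of the 14, against 47.2% of all genes. The gene past 1 was Col1a1, at 209 CPM (157 to 272) and 515 CPM (455 to 580), a log2 ratio of 1.30 (0.88 to 1.75) and 1.34 without the top cell of each library. Its trimer partner Col1a2 was at 240 and 315 CPM, a ratio of 0.39 (-0.04 to 0.84), and Col3a1 was at 827 and 786 CPM. Col4a2 was at 0.57 (0.33 to 0.81) and Col5a3 at 0.50. Fibroblast markers in this class were at 820 and 955 CPM, of which Dcn made 305 and 500 CPM, and neutrophil markers at 61.9 and 3278 CPM. The 7 endothelial markers stood at 1299 and 1232 CPM in it, and a subcluster of 15 and 24 cells was led by endothelial genes. Summed, the log2 ratio was 0.30 (0.15 to 0.46) for fibrillar collagens, and 0.11 without that subcluster, a choice made after the data were seen. For basement membrane collagens it was 0.44 (0.31 to 0.57), and 0.70 without the top cell of each library.

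In endothelium, 11 collagen genes had at least 50 UMIs and none was past a log2 ratio of 1, where 4.97% of all 8670 genes were. The ratio was above 0 for 5 of the 11, against 49.6% of all genes, and 4 of these 5 were the basement membrane genes, all 4 of that kind that had enough UMIs. Col4a1 was at 0.80 (0.70 to 0.89), Col4a2 at 0.80 (0.68 to 0.91), Col18a1 at 0.32 and Col15a1 at 0.31, and the fifth was Col5a2 at 0.02. With cells thinned to 1000 UMIs, Col18a1 turned to -0.084 and Col5a2 to -0.60, while Col4a1, Col4a2 and Col15a1 stayed above 0. Summed, basement membrane collagen had a log2 ratio of 0.68 (0.62 to 0.74). Col13a1 was at -0.15 (-0.48 to 0.18) and Col23a1 at -0.56 (-0.83 to -0.30).

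**Figure D3:**
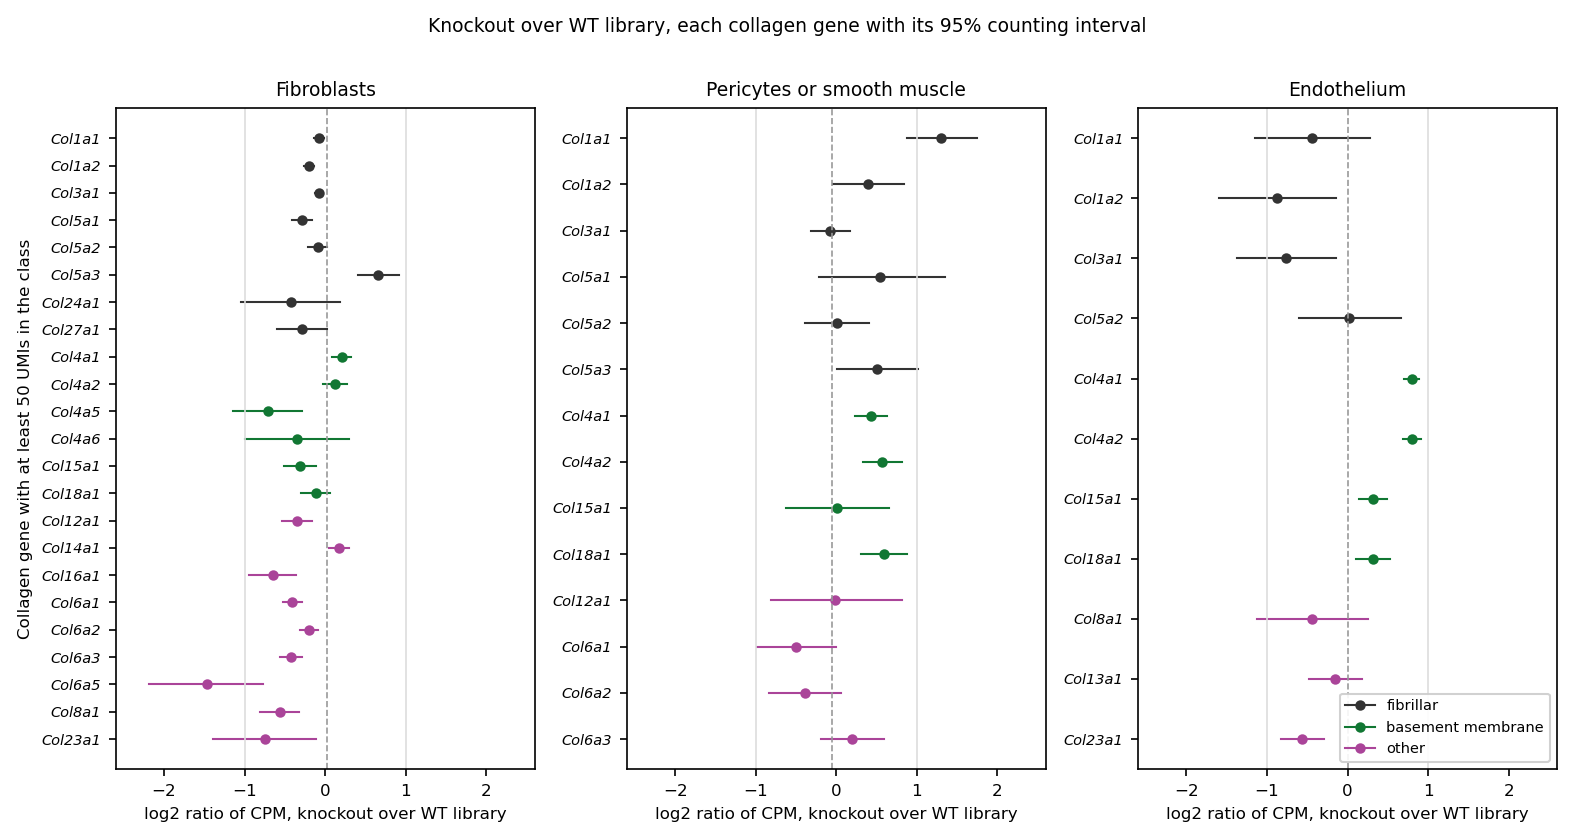
Log2 ratio of CPM, STK25 knockout over WT library (x axis), for each collagen gene with at least 50 UMIs in fibroblasts, pericytes or smooth muscle and endothelium. Points are single libraries compared with each other, bars are 95% counting intervals, the dashed line is the median of all genes in the class and grey lines mark a log2 ratio of 1 in size. The green basement membrane points of endothelium lay right of the dashed line, between 0.31 and 0.80.

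The mix of endothelial subclusters also differed between the libraries. The Apln Esm1 cells were 2.37% and 6.61% of the endothelial cells, the Rbp7 Cd36 cells 15.7% and 25.5%, and the largest lymphatic-like subcluster, with Ccl21a among its leading genes, 30.6% and 14.8%. With 2 smaller lymphatic-like subclusters (2 and 51 cells, and 2 and 13 cells), lymphatic-like cells numbered 146 and 185 in all. When each subcluster was given the same weight in both libraries, the log2 ratio of basement membrane collagen was 0.29. That value leaves out a subcluster with 0 and 29 cells and takes the WT level of others from as few as 2 cells. Among vessel-like subclusters alone it was 0.22. Within subclusters it was -0.36 (-0.50 to -0.22) in Rbp7 Cd36 cells, 0.06 (-0.07 to 0.18) in Madcam1 Ackr1 cells, 0.31 (0.19 to 0.43) in Apln Esm1 cells, 0.37 (0.14 to 0.59) in the largest lymphatic-like subcluster, 2.20 (1.76 to 2.67) in Gja5 Sema3g-led cells, or 0.62 without the top cell of each library, and 1.21 (0.84 to 1.59) in the shallow unnamed cells. The direction was thus not shared by all of them. Over all lymphatic-like cells the levels were 826 and 1751 CPM, a ratio of 1.08 (0.92 to 1.25), so the value there depended on whether the small subclusters, nearly all from the library labelled STK25-/-, were counted. The equal weighting and the restriction to vessel-like cells were chosen after the data were seen.

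**Figure D4:**
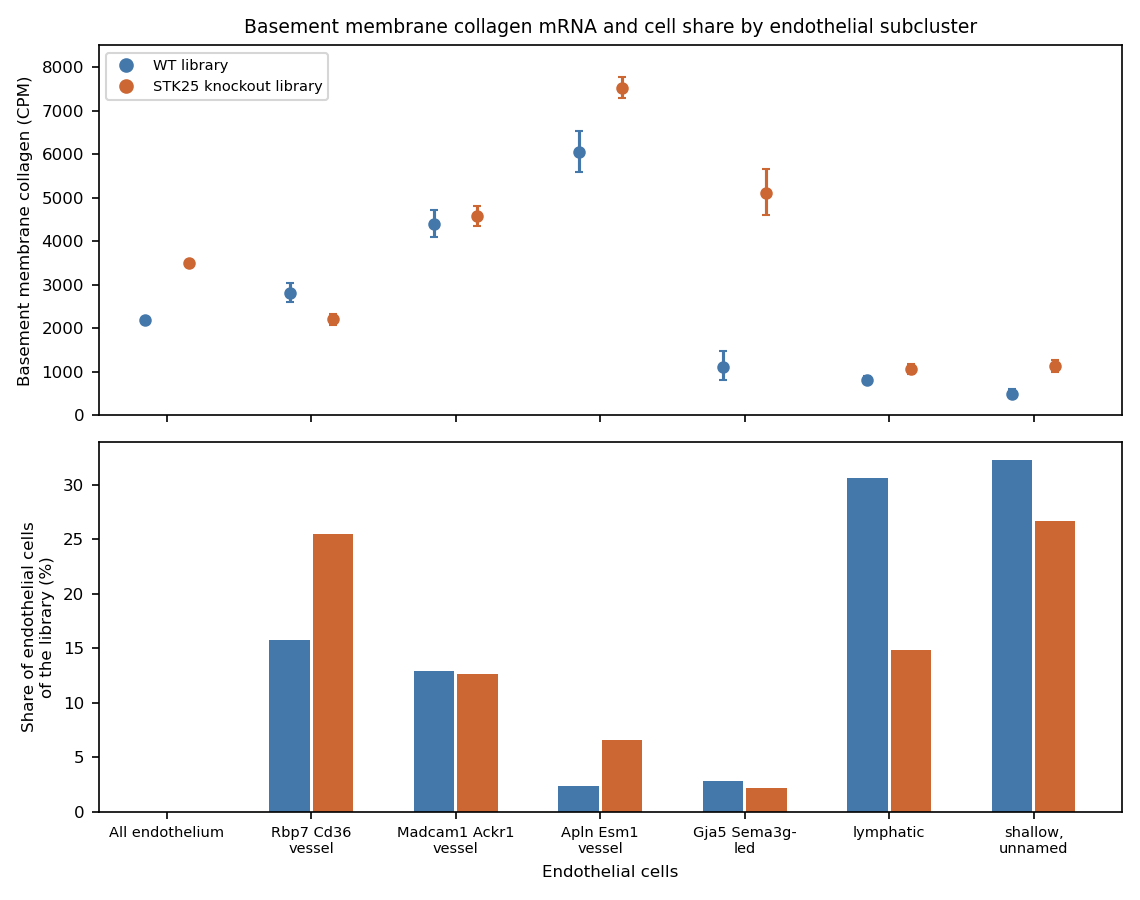
Summed level of the 8 basement membrane collagen genes in CPM with 95% counting intervals (top) and share of the library's endothelial cells in % (bottom) by endothelial subcluster, for the WT (blue) and STK25 knockout library (orange); bars start at 0. Apln Esm1 cells were highest in both libraries and made up 2.37% and 6.61% of the cells, while the point at 5103 CPM in Gja5 Sema3g-led cells rests mainly on 1 cell.

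Fibroblast subclusters also differed in direction. In the subcluster led by Hs3st5, Rxfp1, Myoc and Angptl1 (38 and 88 cells), fibrillar collagen was at 13084 CPM (12502 to 13687) and 5770 CPM (5505 to 6046), a log2 ratio of -1.18 (-1.27 to -1.09). Collagen VI chains summed to 4265 and 1070 CPM there, a ratio of -1.99, and to 3472 and 1015 CPM without the top cell of each library. Col6a1 was at 1532 and 284 CPM, Col1a1 at 3609 and 1103 CPM and Col3a1 at 3471 and 1745 CPM, whereas Col5a2 was at 580 and 561 CPM and Col14a1 at 248 and 434 CPM. The median cell of this subcluster had 0.847% and 0.578% of its UMIs from collagen genes, and 1 cell held 15.2% of its WT collagen UMIs. The subcluster held 1896 and 1769 fibrillar UMIs, where all fibroblasts held 16123 and 20916. Its part in the lower fibroblast ratios was not tested.

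The opposite direction was seen in the fibroblasts led by Fibin, Kcnn3 and Adamtsl3 (63 and 47 cells). Fibrillar collagen was at 5305 and 8189 CPM there, a log2 ratio of 0.63 (0.49 to 0.77), and at 0.44 without the top cell of each library, and Col14a1 was at 487 and 1520 CPM. Collagen VI chains were at 1747 and 964 CPM in the same cells. In the larger adventitial-like and mucosal-like groups the fibrillar ratios were -0.20 (-0.26 to -0.15) and 0.03 (-0.03 to 0.08). Col12a1 in the mucosal-like cells led by Wnt4 was at 524 and 206 CPM, a ratio of -1.35 (-1.66 to -1.04), and in those led by Rad51b and Edil3 (69 and 50 cells) at 500 and 242 CPM, so it was lower in the library labelled STK25-/- in both mucosal-like groups and higher in the pericryptal-like (422 and 792 CPM) and activated-like cells. A subcluster led by Sult1e1 and C7 held 42 WT cells and 1 of the other library, so its levels could not be compared.

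**Figure D5:**
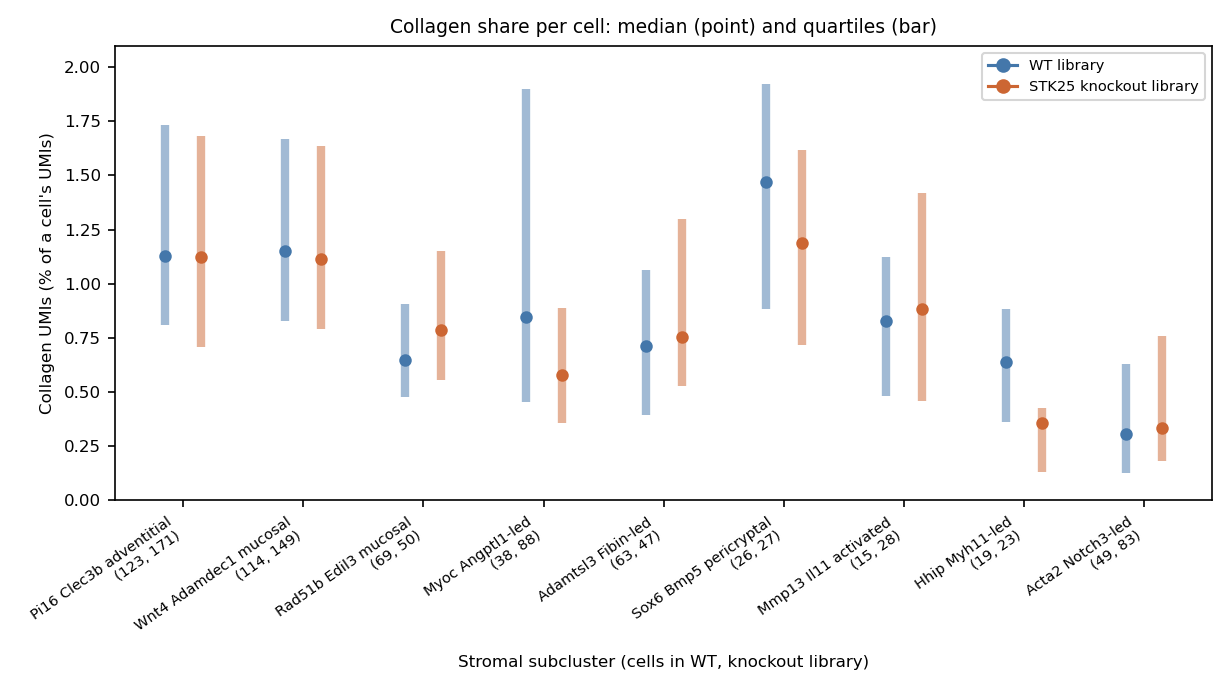
Share of a cell's UMIs that come from collagen genes, in %, by stromal subcluster: points are medians and bars span the quartiles over cells for the WT (blue) and STK25 knockout library (orange), with the numbers of cells below. Medians were 1.13% and 1.12% in the adventitial-like and 1.15% and 1.12% in the Wnt4 Adamdec1 mucosal-like cells, and the Myoc Angptl1-led cells had 0.847% and 0.578%.

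In glia, 2 collagen genes had at least 50 UMIs, and both were past a log2 ratio of 1, where 63.1% of the 415 genes with as many UMIs were. Both were below 0, against 38.6% of all genes: Col12a1 was at -2.02 (-2.81 to -1.29) and Col18a1 at -1.21 (-2.05 to -0.40). With that background the counts say little of these genes. In epithelium, 21 genes had at least 50 UMIs and none was past 1, where 5.14% of all 14720 genes were. The ratio was above 0 for 15 of the 21, against 37.4% of all genes, and the summed basement membrane ratio of 0.49 stood beside 0.83 in B cells and 1.08 in T or NK cells.

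Chains of the same trimer kept different ratios to each other. Col4a1 to Col4a2 was 1.51 (1.38 to 1.65) and 1.51 (1.43 to 1.58) in endothelium, 1.59 and 1.68 in fibroblasts and 1.55 and 1.40 in pericytes or smooth muscle. Col1a1 to Col1a2 was 0.87 (0.83 to 0.91) and 0.95 (0.91 to 0.99) in fibroblasts, and 0.87 (0.59 to 1.28) and 1.64 (1.34 to 2.0) in pericytes or smooth muscle. In the activated-like cells, whose membership changed with the processing, it was 1.22 (0.92 to 1.62) and 2.43 (2.03 to 2.91). The ratio of Col6a3 to Col6a2 spread widely between fibroblast subtypes, from 0.25 and 0.16 in mucosal-like cells to 1.97 (1.51 to 2.57) and 3.45 (2.07 to 5.99) in C7 Adamtsl3-like cells, the name for the Fibin-led and Sult1e1-led subclusters together. Col5a1 to Col5a2 was 1.02 and 0.89 in fibroblasts and 0.24 and 0.35 in pericytes or smooth muscle.

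Genes that make, trim and bind collagen had medians closer to 0 than the collagen genes in fibroblasts. Of 22 genes for folding and modifying the chains, 20 had at least 50 UMIs, 10 were above and 10 below a log2 ratio of 0, and none was past 1. The median was 0.02. Those with most UMIs were the collagen chaperone Serpinh1 at 583 and 749 CPM (log2 ratio 0.36), the isomerase Ppib at 376 and 478 CPM (0.35), P4hb, a subunit of prolyl 4-hydroxylase, at 307 and 375 CPM (0.29) and the lysyl hydroxylase Plod2 at 193 and 169 CPM (-0.19). Of 13 processing and crosslinking genes, 10 had enough UMIs, 5 were above and 5 below 0, with Loxl2 at 380 CPM in both libraries, Pcolce, a helper of procollagen cleavage, at 368 and 417 CPM, Adamts2 at 258 and 219 CPM and Loxl1 at 202 and 215 CPM.

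The fibril partners and receptors showed no common direction in fibroblasts either. Of 8 partners, 7 had enough UMIs, with Dcn at 6850 and 6698 CPM, Sparc at 2073 and 2160 CPM, Fn1 at 1092 and 1186 CPM and Tnxb at 836 and 769 CPM. Thbs2 was at 142 and 80.1 CPM, a ratio of -0.82. Of 9 receptors, 7 had enough UMIs, 3 above and 4 below 0, among them Itgb1 at 426 and 441 CPM, Ddr2 at 267 and 243 CPM, Mrc2 at 141 and 131 CPM and Itga1 at 70.9 and 53.2 CPM. In endothelium, 12 of 17 folding genes were above 0, against 49.6% of all genes, with a median of 0.25. Past a log2 ratio of 1, where 4.97% of all genes were, stood Fn1 at 174 and 678 CPM (1.96) and Dcn at 94.6 and 205 CPM (1.12). The 7 fibroblast markers summed to 135 and 236 CPM in endothelium, but Dcn is 1 of them and made up most of that sum. Its level in endothelium was 1.45 and 2.78 times that in B and T or NK cells. A lymphatic-like subcluster with Ccl2, Tnc and Fn1 among its leading genes held 2 and 51 cells, or 0.431% and 6.24% of endothelium. Sparc, which endothelium also makes, was at 895 and 1717 CPM. In pericytes or smooth muscle no gene of these lists with at least 50 UMIs in the class was past 1. In glia Ppib, at 196 and 576 CPM (1.55), and the integrin chain Itga1, at 514 and 253 CPM (-1.02), were past 1, as were 63.1% of all genes tested there, so nothing is read from it. In epithelium Thbs2, at 9.96 and 20.9 CPM (1.07), was past 1, where 5.14% of all genes were.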

How the data were processed

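Single cells of AOM/DSS tumours were measured by droplet 3′ sequencing in 1 library labelled WT and 1 labelled STK25 wKO, grouped by those labels. The values deposited by the authors were UMI counts without normalization for every barcode and gene, produced with Cell Ranger 7.1.0 per the file headers on mm10, in filtered matrices with at least 500 UMIs per barcode and a median of 1386.5 (WT) and 2065 (STK25-/-) UMIs.

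Cells with under 200 genes (2 and 3) or over 25% mitochondrial UMIs (270 and 282) were removed. For clustering, each cell was brought to a total of 10000 and its logarithm taken, with scanpy 1.11.5 (2000 variable genes without collagen genes, 30 principal components, 20 neighbours, leidenalg 0.10.2 at resolution 1, and 0.8 within stroma and endothelium, on Python 3.11.15 with numpy 2.4.6, scipy 1.17.1 and pandas 2.3.3). A cluster took a name when at least 3 markers of a type were in at least 10% of its cells and 5 points above the median cluster. A shallow cluster, under 0.5 of its library's median depth and without its own markers in the lead, stayed unnamed, a rule set after the data were seen. Names were rebuilt here and are not the authors' annotation.

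Raw UMIs were summed per class and library and given as CPM with exact Poisson intervals. Shares have Clopper-Pearson intervals and ratios conditional binomial ones, at 95%. With 1 library per group no test was run. Scrublet's automatic threshold marked 0 cells as doublets, which were therefore kept, and removing the highest scores (9.82% and 11.1% of cells) was an alternative. Other alternatives changed the cell filter, resolution, variable genes, minimum UMIs, weighting and depth (cells thinned to 1000 UMIs, 6677 left out).

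Values are given for members with at least 200 UMIs in the class where they were highest and in other classes with at least 50 of their UMIs and 5 times the level of B and T or NK cells, for members past a log2 ratio of 1 with at least 50 UMIs, and for the 4 genes of each further list with most UMIs in fibroblasts. Members named within subclusters, those with fewer UMIs and the other named genes were chosen after their values were seen. The members and lists were chosen with earlier results of these data known. Loci are from GENCODE M21 and upstream sequences from RefSeq. The interval and ratio calculations were tested on simulated data.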

Additional observations from a re-analysis of the deposited data

How the results depend on the processing

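With 1 library per group and tumours combined, no result can be separated from differences between mice, dissociations or library preparation, and intervals cover counting error only. No paired analysis was possible because each group has 1 library. Of the alternatives for summed results, 34 moved the value by more than its counting interval allows and 63 did not. Of 409 for single genes, 37 moved, 7 changed sign and 365 did neither, and the cause was not tested.

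In fibroblasts, the fibrillar log2 ratio of -0.11 became -0.17 at resolution 0.5, -0.16 with a stricter filter (500 genes per cell, 10% mitochondrial), -0.068 with doublets removed, -0.023 as a mean over cells and -0.080 with thinned cells. Chosen after seeing the data, it was -0.049 in subclusters with fibroblast markers alone and -0.17 without the Sult1e1 and C7 subcluster. The basement membrane ratio of 0.02 became 0.14 at resolution 0.5, 0.12 as a mean over cells, 0.11 with the subtype mix of both libraries and, added later, 0.10 in subclusters with fibroblast markers. The ratio of the other kinds, -0.27, became -0.33 at resolution 0.5, -0.061 as a mean over cells and -0.087 thinned. The 1 gene past a log2 ratio of 1 became 2 at resolution 0.5, 0 thinned, 4 with at least 20 UMIs and 10 with at least 1 UMI in each library. The fibroblasts' share of fibrillar UMIs, 89.7% and 86.9%, became 91.6% and 90.5% at resolution 0.5, 90.8% and 85.6% with the stricter filter and 87.1% and 85.5% thinned, and the STK25-/- share 87.3% with collagen genes kept in the clustering.

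In pericytes or smooth muscle, the fibrillar ratio of 0.30 became 0.69 with the stricter filter, 0.060 thinned and, added later, 0.11 without the subcluster led by endothelial genes, and the basement membrane ratio of 0.44 became 0.70 without the top cell of each library. Resolution 0.5 gave no such class. In endothelium, the basement membrane ratio of 0.68 became 0.81 as a mean over cells and 0.61 thinned, and in alternatives added later 0.22 in vessel-like subclusters, 0.29 with the subcluster mix of both libraries and 0.74 without top cells. The genes that changed sign were Col1a1 in fibroblasts (0.011 as a mean over cells, 0.029 thinned) and, all thinned, Col12a1 (0.11) and Col6a2 (0.065) in fibroblasts, Col18a1 in endothelium (-0.084), and Col5a3 (0.26) and Col27a1 (0.42) in glia.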
